A study of Mus musculus with 29 samples.

Results

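The Dlk1-Dio3 cluster is an imprinted stretch of mouse chromosome 12, and its RNAs were followed here in lung tumours. The 5 genes Meg3, Rian, Mirg, Dlk1 and Dio3 were taken by name, with every probe set annotated to them, in all 29 arrays of the series. Of the 5, 4 had probe sets: Meg3 had 11, Rian had 4, Mirg had 2 and Dlk1 had 2, which makes 19 of the 45101 probe sets in the table. Dio3 had 0 annotated probe sets and was not analysed here. All 19 passed the filter on low values, as did 31932 probe sets in all. The set was chosen by the measured signal of Meg3 in recurrences, which was lower than in TI-KM primaries, so recurrence signals are described below without p-values. The TI-KM primaries were the other side of that choice, and the tests below that include them share those arrays with it.

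The samples were bulk tissue from mice of a mixed 129/Bl6 background. TI-K primary tumours (8 arrays) carried CCSP-rtTA and an oncogene under the TRE promoter, TI-KM primary tumours (14 arrays) carried both of these and TRE-Mad2, and 6 recurrences came from TI-KM mice. The single normal lung came from a mouse with CCSP-rtTA alone, so every group carried the transactivator. The tumours were labelled as adenocarcinoma or adenoma of the lung, and the series title places the recurrences after withdrawal of the oncogene. The CCSP promoter drives the transactivator in airway epithelium, and Mad2 is a spindle checkpoint protein. No label gave ages, or said which tumours came from separate animals or which recurrence arose from which primary. TI-KM 1 and TI-KM 2 shared title number 76. The p-values below therefore measure only the spread between these samples.

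In this cluster the 2 parental chromosomes are read differently. Meg3, Rian and Mirg are long noncoding RNAs made from the maternal copy, and Rian and Mirg are hosts of small nucleolar RNAs and microRNAs. Dlk1, a membrane protein related to Notch ligands, and Dio3, the deiodinase that inactivates thyroid hormone, are made from the paternal copy. Methylation of a region before Meg3 on the paternal chromosome keeps the maternal RNAs silent there. The cluster is active in the embryo and placenta, low in most adult tissues, and Meg3 has been described as a growth-restraining RNA in several human tumours.

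On GRCm38.p6, RefSeq placed Dlk1 at chr12:109452485-109463336, Meg3 at chr12:109540996-109571729, Rian at chr12:109603945-109661716, Mirg at chr12:109734981-109749458 and Dio3 at chr12:110279230-110281097, all on the forward strand. The window from 250 bases before to 50 after the annotated start was found for 5 of 5 members in the RefSeq promoter table. The Meg3 window is shown because Meg3 carries the main result. Capitals mark a cyclic AMP response element, spelled TGACGTCA, and a CCAAT box further from the start. They also mark the letters of a TATA box, searched as TATAAA, which occurred on both strands with an overlap.

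Meg3, chr12:109540746-109541045, forward strand, GRCm38.p6: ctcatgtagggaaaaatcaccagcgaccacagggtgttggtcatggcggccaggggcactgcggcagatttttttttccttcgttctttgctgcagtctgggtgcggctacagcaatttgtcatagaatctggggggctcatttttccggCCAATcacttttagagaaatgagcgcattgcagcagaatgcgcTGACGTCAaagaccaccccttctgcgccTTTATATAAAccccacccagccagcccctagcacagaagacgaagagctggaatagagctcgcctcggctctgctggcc

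On GRCm38.p6 the first base of the response element lay at -57 from the start and that of the CCAAT box at -100. The TATA letters began at -25 on the forward strand and at -29 on the reverse. Searched on both strands, the response element was in 1.79% of the 32851 promoter windows of the same length, the CCAAT box in 37.4% and the TATA box in 13.6%. The Meg3 window held 13 CpG dinucleotides against a median of 7 over all windows. A second RefSeq start of Meg3 had a window with 1 CpG and none of these motifs.

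The Dlk1 window is given for comparison, because Dlk1 is the paternal gene with data. The promoter table puts its start inside the gene span given above, so these bases, which end just before that start, lie within the annotated gene.

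Dlk1, chr12:109452573-109452822, forward strand, GRCm38.p6: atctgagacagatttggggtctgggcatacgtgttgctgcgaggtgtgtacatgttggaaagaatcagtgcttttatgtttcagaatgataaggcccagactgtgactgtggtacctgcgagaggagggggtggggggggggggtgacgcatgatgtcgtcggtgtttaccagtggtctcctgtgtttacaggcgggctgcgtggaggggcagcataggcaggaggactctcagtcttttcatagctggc

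None of these motifs, nor a GC box searched as GGGCGG on both strands (in 35.7% of windows), was found in the Dlk1 window of 300 bases, which held 9 CpG dinucleotides. The Rian window had 0 CpG and none of these motifs, and the Mirg window had 10 CpG and 1 CCAAT box. The Dio3 window had 25 CpG, more than in 81.6% of windows, with a TATA box, CCAAT boxes and GC boxes. No array probe reports on methylation, so these letters are context for the RNA values only.

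The RefSeq table listed 114 mature microRNA sequences between the start of Dlk1 and the end of Dio3. Of those on the forward strand, 3 lay within Meg3, 6 within Rian and 19 within Mirg. The arrays did not measure mature microRNAs. A few are shown because their hairpins lie inside the RNAs that were measured; capitals mark the seed, bases 2 to 8.

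mmu-miR-770-5p, within Meg3: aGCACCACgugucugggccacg

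mmu-miR-341-3p, within Rian: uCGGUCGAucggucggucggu

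mmu-miR-370-3p, within Rian: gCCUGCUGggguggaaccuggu

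mmu-miR-453, within Mirg: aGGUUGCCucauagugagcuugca

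mmu-miR-496a-5p, within Mirg: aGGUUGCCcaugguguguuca

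mmu-miR-154-5p, within Mirg: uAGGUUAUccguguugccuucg

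mmu-miR-377-3p, within Mirg: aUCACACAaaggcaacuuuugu

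mmu-miR-409-3p, within Mirg: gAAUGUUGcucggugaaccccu

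mmu-miR-410-3p, within Mirg: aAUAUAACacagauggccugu

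Among the 28 mature sequences within the 3 noncoding RNAs, mmu-miR-453 and mmu-miR-496a-5p shared the seed GGUUGCC. Each of the others had a seed of its own among these.

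Values are MAS5 signals on a linear scale, and differences are on log2(signal + 20), which understates the change of weak probe sets. A signal depends on its probes, so the level of one probe set is not set against that of another. The arrays fell into sets that the groups did not explain. A high 18S ribosomal control signal (above 12000) marked 10 tumour arrays, TI-KM 1 to 6 and recurrences 1 to 4, and also the normal lung, at 12569. The 5 TI-K primaries 1 to 5 had title numbers above 6000, and 13 tumour arrays remained (TI-K 6 to 8, TI-KM 7 to 14, recurrences 5 and 6). RNA integrity was read from control transcripts, as the log2 ratio of their 3' to their 5' signal. It averaged 2.16 ± 0.41 (SD, n = 8) for TI-K and 2.16 ± 0.67 (SD, n = 14) for TI-KM primaries. Recurrences had lower ratios, 1.32 ± 0.45 (SD, n = 6), and the normal lung had 2.59. The 9 measured alveolar type II markers, surfactant genes among them, summed to 94107 to 201819 in every tumour array and to 59165 in the normal lung. Not every marker followed the sum. Sftpc read 28262 in the normal lung, against medians of 18660 in TI-K primaries, 16570 in TI-KM primaries and 13617 in recurrences. That normal lung array also had a summed adipocyte marker signal of 67914, against 1296 to 10188 in tumours, over the 3 measured of 8 listed markers.

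At its highest-mean probe set, 1439380_x_at, Meg3 was high in most primary tumours and low in 5 of 6 recurrences. The signal there in TI-K primaries 1 to 8 was 34495, 21635, 24094, 11200, 21122, 23943, 11637 and 1573. TI-K 8 lay far under the other TI-K tumours. In the 14 TI-KM primaries the lowest signal was 948 (TI-KM 9), the median 8280 and the highest 26316 (TI-KM 3). Recurrences 1 to 6 read 394, 541, 6835, 930, 749 and 462, and the normal lung 531. Recurrence 3 sat among the primaries, while the other 5 were below every TI-KM primary and close to the normal lung. The highest of those 5, recurrence 4 at 930, came just under TI-KM 9 at 948. On the log2 scale the means were 13.82 ± 1.40 (SD, n = 8) in TI-K, 12.94 ± 1.14 (SD, n = 14) in TI-KM and 9.83 ± 1.49 (SD, n = 6) in recurrences.

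**Figure D1:**
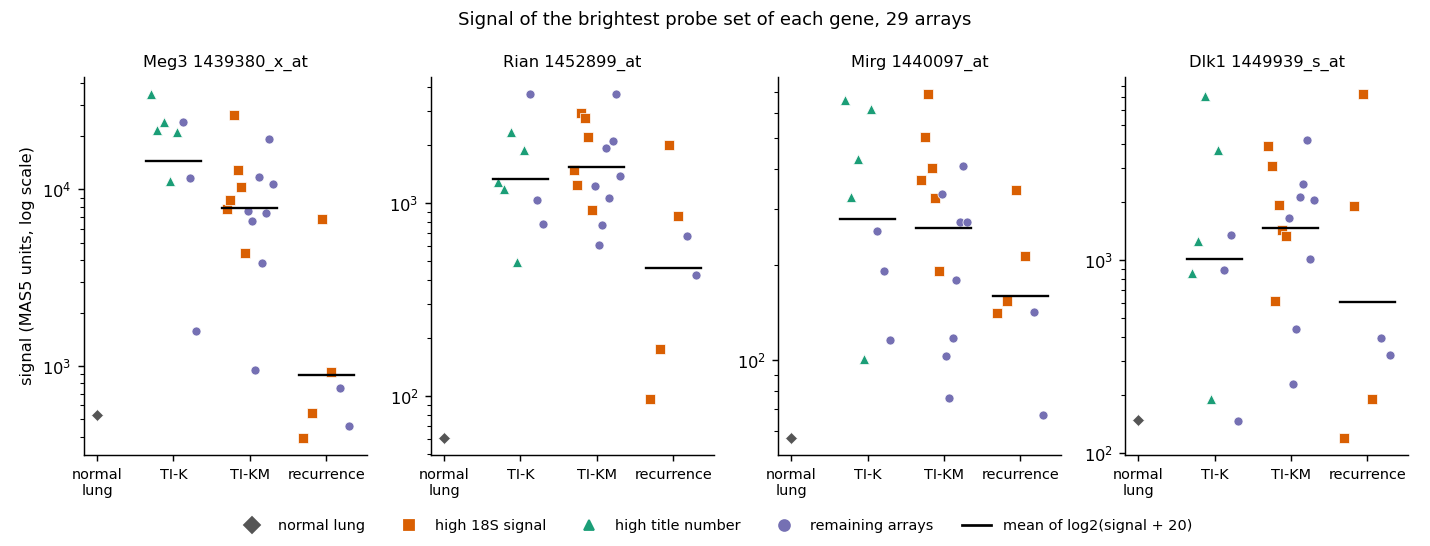
Signal of the highest-mean probe set of Meg3, Rian, Mirg and Dlk1 in each of the 29 arrays (MAS5 units, log axis), by group; marker shape gives the set of arrays and the line is the mean of log2(signal + 20) turned back to a signal. Recurrence 3 stands at 6835 for Meg3 while the other recurrences lie between 394 and 930.

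All 11 Meg3 probe sets had lower means in recurrences than in TI-KM primaries, but by very different amounts. The mean difference ran from -3.67 for 1452183_a_at to -0.12 for 1429256_at, and 8 of 11 were at least 2-fold lower. Probe set 1452183_a_at read 27.0, 65.9, 1375, 197, 224 and 139 in recurrences 1 to 6, against 194 to 15185 in TI-KM and 330 to 28487 in TI-K primaries. Only recurrences 1, 2 and 6 were below every TI-KM primary there. For 1452905_at the recurrences read 161, 160, 2860, 535, 495 and 406, against 751 to 13137 in TI-KM primaries, and again 5 of 6 were below all of them. By contrast 1429256_at read 182, 245, 350, 185, 145 and 92.1, inside the 49.9 to 658 of the TI-KM primaries. That probe set is annotated to the same database sequence as 1429257_at, which differed by -0.72. Probe sets 1428764_at, 1428765_at and 1452905_at share another such sequence and gave -1.09, -1.43 and -3.01. A further one is shared by 1426758_s_at and 1452183_a_at, which gave -2.54 and -3.67. The high signal of recurrence 3 did not hold at every Meg3 probe set. It read 129 at 1428764_at, 11.5 at 1436713_s_at and 54.9 at 1452906_at. The 6 recurrences ran there from 99.3 to 221, 6.60 to 32.7 and 14.4 to 63.5. The suffixes _s_at, _a_at and _x_at mark probe sets whose probes match several transcripts or share sequence with others, so the probe sets are not independent measures of Meg3.

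Rian, the snoRNA host downstream of Meg3, was lower in most recurrences. At 1452899_at the TI-K primaries ran from 495 to 3649 with a median of 1235, and the TI-KM primaries from 606 to 3645 with a median of 1429. Recurrences 1 to 6 read 95.9, 174, 1991, 852, 671 and 423. Recurrences 1, 2 and 6 were below every TI-KM primary, and recurrence 3 was above the TI-KM median. The mean difference was -1.69, and the 4 Rian probe sets ran from -1.69 to -0.76 with 2 at least 2-fold lower.

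Mirg, the microRNA host at the far end of the maternal transcripts, differed less at one probe set than at the other. Probe set 1440097_at read 141, 154, 345, 213, 142 and 67.3 in recurrences 1 to 6, against 76.2 to 689 in TI-KM primaries (median 298), a mean difference of -0.64. Only recurrence 6 was below every TI-KM primary. Probe set 1457030_at read 25.0, 31.5, 189, 27.2, 48.3 and 31.1, against 42.2 to 409, a mean difference of -1.29 with recurrences 1, 2, 4 and 6 below every TI-KM primary. Of the recurrences, recurrence 3 was the highest at both Mirg probe sets.

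Dlk1, the paternally expressed member, varied widely within every tumour group. At 1449939_s_at the TI-K primaries read 861, 1260, 7078, 190, 3709, 886, 1350 and 147. The TI-KM primaries ran from 229 (TI-KM 8) to 4212 (TI-KM 12) with a median of 1788. Recurrences 1 to 6 read 120, 1917, 7225, 190, 395 and 323, and the normal lung 149. Recurrence 3 was above every TI-KM primary, recurrence 2 was inside their range, and recurrences 1 and 4 were below all 14. The mean difference of -1.26 therefore hides recurrences that moved opposite ways. The weaker probe set 1442724_at gave -0.82, with 3 of the 6 recurrences under a signal of 20.

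Across the 19 probe sets all 19 mean differences were negative, with a median of -1.29, against a median of 0.03 over all probe sets tested. At least 2-fold lower in recurrences than in TI-KM primaries were 12 of 19 members, where 1.93% of all probe sets were that much lower and 0.799% that much higher. The 2 Meg3 probe sets with at least 5 of 6 recurrences below every TI-KM primary compare with 0.360% of all probe sets. Because this contrast chose Meg3, these shares are given as description. Without recurrence 3 the differences were -3.70 for Meg3 1439380_x_at, -2.10 for Rian 1452899_at, -0.85 for Mirg 1440097_at and -1.96 for Dlk1 1449939_s_at; the Dlk1 value moved by over 1.5 times.

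**Figure D2:**
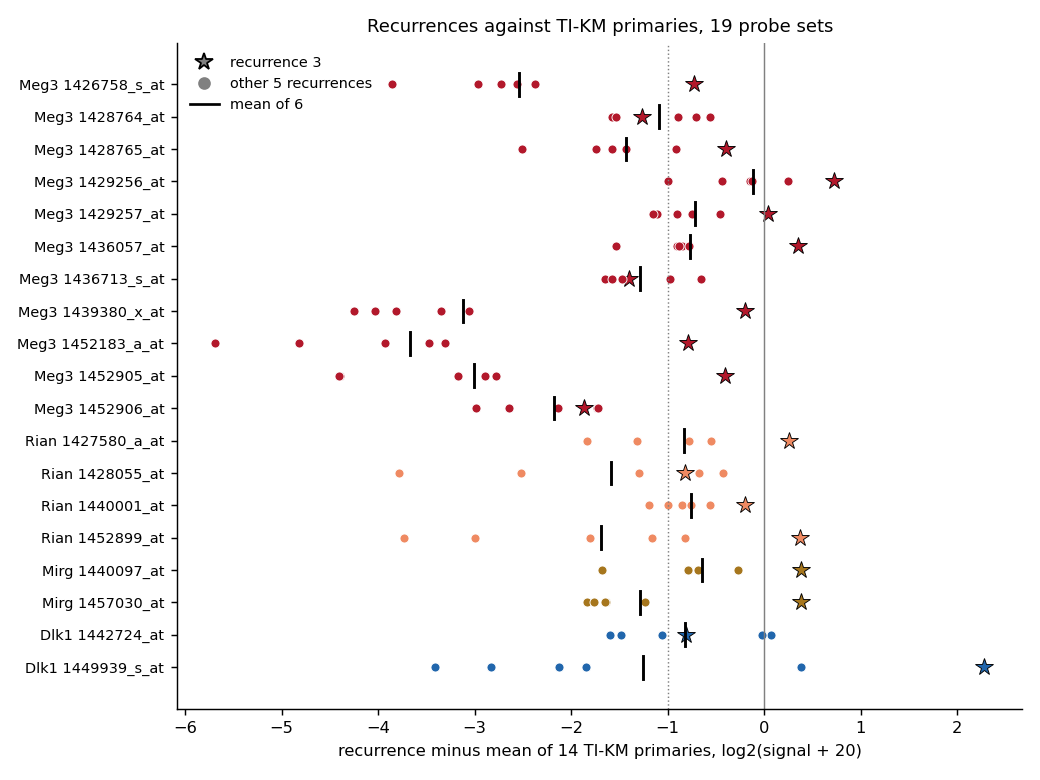
Each recurrence minus the mean of the 14 TI-KM primaries on log2(signal + 20), for the 19 probe sets; the star is recurrence 3, the bar the mean of 6, the dotted line a 2-fold lower signal. Recurrence 3 lies highest of the 6 for Meg3 1439380_x_at and for both Mirg probe sets, and 4 of the 6 lie left of the dotted line for Dlk1 1449939_s_at.

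The lower Meg3 signal was found within both sets of arrays that hold recurrences. Among high-18S arrays Meg3 1439380_x_at differed by -3.19 (4 recurrences, 6 TI-KM primaries) and among the remaining arrays by -3.42 (2 and 8). With the 3'/5' ratio as a covariate the difference was -2.64, and 9 members were at least 2-fold lower. The share over all probe sets in that fit is not given here. Fibroblast markers, 8 of 8 measured, summed to 5695 to 27202 in recurrences and 6988 to 21829 in TI-KM primaries. Recurrence 3, which kept a high Meg3 signal at 1439380_x_at but not at every Meg3 probe set, had the lowest fibroblast sum, 5695. That recurrence also had the lowest sum over the 5 macrophage markers, 4388, against 8111 to 18464 in TI-KM primaries. In bulk tissue, fewer cells of a type and less RNA per cell cannot be told apart. The part of cell content in the lower Meg3 signal was not tested.

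The 6 recurrences differed among themselves in how much of the cluster was low. Below every TI-KM primary were 10 of 19 probe sets in recurrence 1, where 12.8% of all probe sets were, and 9 in recurrence 6, where 11.1% were. The count was 6 in recurrence 2 (10% of all probe sets), 6 in recurrence 4 (5.41%), 2 in recurrence 5 (6.81%) and 0 in recurrence 3 (10.5%). The 2 members of recurrence 5 are near that array's share over all probe sets. Recurrence 1 was low for all 4 genes, with both Dlk1 probe sets below every TI-KM primary. In recurrence 2 the maternal RNAs were low and Dlk1 was not: its median deviations were -1.73 for Meg3, -1.92 for Rian and -0.34 for Dlk1. Recurrence 4 had its lowest median deviation at Dlk1, -2.15, against -0.92 for Meg3. That order depends on the summary used. At the highest-mean probe sets recurrence 4 deviated by -3.05 for Meg3 and by -2.83 for Dlk1.

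Neighbouring genes outside the imprinted cluster had mean recurrence signals within 2-fold of the TI-KM means. Of 18 listed neighbours on chromosome 12, 16 were measured, and 0 were at least 2-fold lower or higher in recurrences than in TI-KM primaries, with a median difference of -0.02. Over all probe sets 1.93% were that much lower and 0.799% higher, so 0 of 16 is near the share of all probe sets. The largest were Degs2, a sphingolipid hydroxylase, at 0.59, and Tecpr2, an autophagy protein, at -0.48. The per-recurrence median over the 16 neighbours ran from -0.35 to 0.27, but single neighbours deviated further. Evl, an actin regulator, was at 2.09 in recurrence 1 and -1.74 in recurrence 3, and Degs2 was at 2.05 in recurrence 2. Dio3os, the antisense RNA beside Dio3, is no member and was looked at after its values were seen. It read 43.2 to 230 in recurrences and 31.6 to 234 in TI-KM primaries, a difference of 0.34. Rtl1 and Begain had no annotated probe set and were not analysed here.

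**Figure D3:**
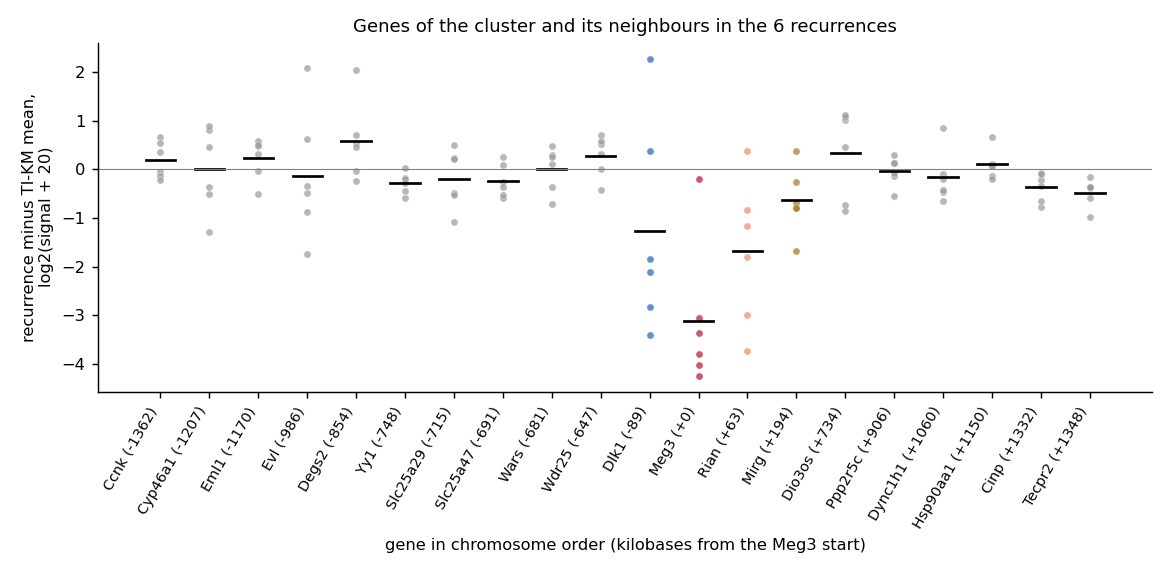
Each recurrence minus the TI-KM mean on log2(signal + 20) for genes in chromosome order, 1 probe set a gene; points are the 6 recurrences, bars their mean, and the labels give kilobases from the Meg3 start. The bars of Dlk1 (-1.26), Meg3 (-3.12), Rian (-1.69) and Mirg (-0.64) lie under those of the measured neighbours, which run from -0.48 to 0.59.

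Recurrences were also set against TI-K primaries, which lack the Mad2 transgene; this comparison shares the recurrences that chose Meg3 and has no test. Of the 19 probe sets, 16 were at least 2-fold lower, where 9.55% of all probe sets were. Meg3 1439380_x_at differed by -3.99, and 1452183_a_at by -5.30. Every recurrence was below every TI-K primary for 2 members, against 3.24% of all probe sets. They were Meg3 1452906_at, at 14.4 to 63.5 against 90.0 to 1932, and Rian 1428055_at, at 5.85 to 244 against 287 to 2396. Meg3 1429256_at alone of the 19 did not have a lower mean, at 0.05. No TI-K array was high-18S and no recurrence had a high title number, so group and set cannot be told apart outside the remaining arrays. Among those (2 recurrences, 3 TI-K primaries) the gaps were smaller. The log2 means were 7.62 against 11.29 for Meg3 1452183_a_at, 6.17 against 8.06 for Meg3 1452906_at and 7.92 against 9.04 for Rian 1428055_at.

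TI-KM and TI-K primaries differ by the TRE-Mad2 transgene, and this contrast was not the one that chose the members. Of the 19 probe sets limma called 3 lower in TI-KM tumours and 0 higher at an adjusted p below 0.05; 8.33% of all probe sets were called lower and 7.49% higher. All 3 were Meg3 probe sets. Probe set 1426758_s_at read 324 to 18744 in TI-K primaries (median 6197), against 161 to 5401 for TI-KM (median 979), a log2 difference of -1.91 ± 0.58 (SE, limma adjusted p = 0.0266). The ranges overlapped, with TI-K 8 under most TI-KM tumours. Probe set 1428764_at gave -1.30 ± 0.38 (SE, limma adjusted p = 0.0218), and 1436713_s_at gave -1.46 ± 0.42 (SE, limma adjusted p = 0.0204).

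The brightest Meg3 probe set, 1439380_x_at, gave -0.87 ± 0.52 (SE, limma adjusted p = 0.240) and was not called. The median over the 11 Meg3 probe sets was -1.22, and 1429256_at gave 0.17. Among the 4 Rian probe sets, 1428055_at gave -1.46 ± 0.52 (SE, limma adjusted p = 0.0507) and 1452899_at gave 0.19 ± 0.40 (SE, limma adjusted p = 0.765). The Mirg probe sets gave -0.09 and 0.07, and the Dlk1 probe sets -0.22 and 0.53, none of them called. Of the 19, 11 had an unadjusted p below 0.05. The share of all probe sets under that threshold is not given here, so this count is no measure of the members.

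The 3 calls ended when the sets of arrays were taken into account. With the set as a block the same probe sets gave -0.46, -0.05 and -0.45 (limma adjusted p = 0.997, 0.999 and 0.997), and among the remaining arrays -0.48, -0.02 and -0.39 (limma adjusted p = 0.951, 0.997 and 0.950). The high TI-K signals sat in the high-number tumours: for 1426758_s_at, TI-K 1 to 5 ran from 2979 to 18744, and TI-K 6 to 8 from 324 to 4978. The count of members called lower was 0 without TI-K 1 or TI-K 3 and 1 without TI-K 2 or TI-K 5. It was 7 without TI-KM 3, 6 without TI-KM 7 or TI-KM 13, and 12 without TI-K 8. Shares over all probe sets in these refits are not given here, so these counts show only how unstable the calls were. Of the 8 fibroblast markers limma called 3 lower in TI-KM tumours, where 8.33% of all probe sets were, and 0 higher. They were Pdgfra, Col5a2 and Col6a3, with Pdgfra at -1.10 (limma adjusted p = 0.0142) and at -0.25 with the set as a block. The other 5 did not pass, and Col1a1 was at 0.12. The 8 markers summed to 12006 to 31693 over the TI-K primaries and to 6988 to 21829 over the TI-KM primaries. Their part in the Meg3 difference was not tested.

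**Figure D4:**
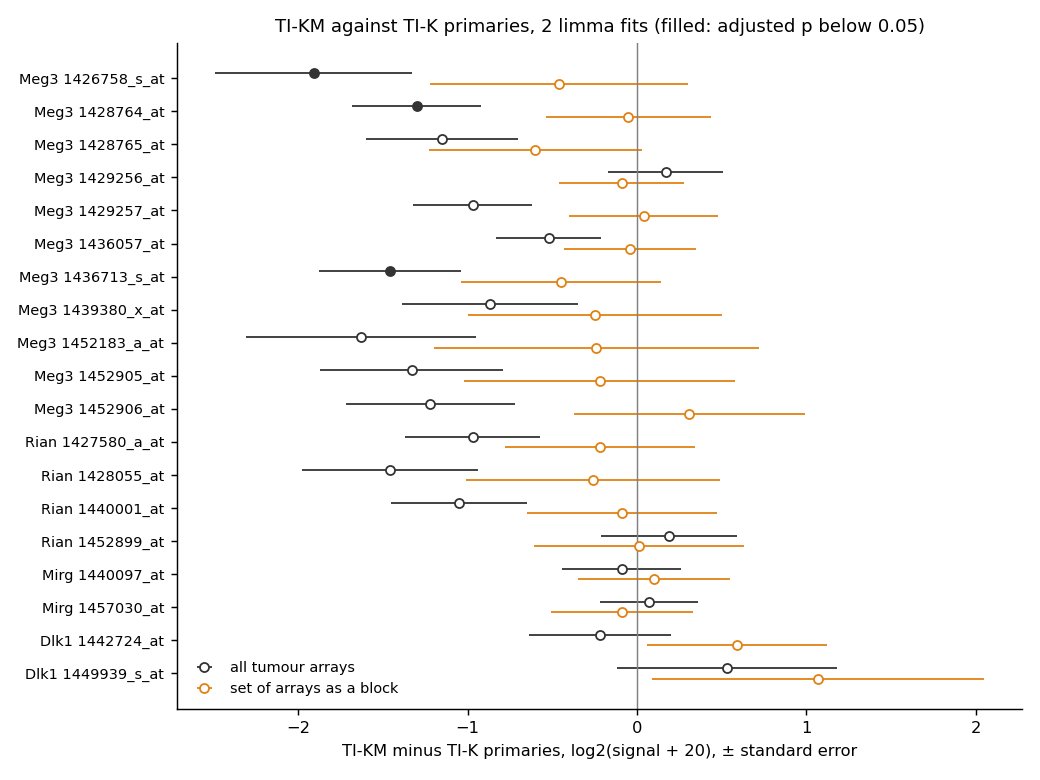
TI-KM minus TI-K primaries on log2(signal + 20) with its standard error for the 19 probe sets, in limma over all arrays (dark) and with the set of arrays as a block (orange); filled points have an adjusted p below 0.05. The 3 filled Meg3 points, at -1.91, -1.30 and -1.46, move to -0.46, -0.05 and -0.45.

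Against the 1 normal lung, 6 of 11 Meg3 and all 4 Rian probe sets were called higher in TI-K tumours, and none of the 2 Mirg and 2 Dlk1 probe sets. The normal side is 1 array, which cannot be left out; its spread was borrowed from the tumours, and its adipocyte and 18S signals, given above, move with every one of these contrasts. Their part was not tested. No TI-K array was among the high-18S arrays, so this contrast sets a high-18S array against lower ones. Limma called these 10 of 19 members higher, where 4.49% of all probe sets were, and 0 lower. The share of all probe sets called lower is not given here. Meg3 1439380_x_at was 26.2-fold higher (log2 4.71 ± 1.24 SE, limma adjusted p = 0.0119) and Rian 1452899_at 16.8-fold (log2 4.07 ± 0.95 SE, limma adjusted p = 0.00468), each in 8 of 8 tumours. Mirg 1440097_at at 1.96 and Dlk1 1449939_s_at at 2.61 were not called (limma adjusted p = 0.155 and 0.369). With the remaining arrays alone 2 members were called in TI-K tumours, both Rian: 1428055_at at 3.91 and 1452899_at at 4.17. No share over all probe sets is given for that fit.

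In TI-KM tumours 2 of 19 members were called higher than the normal lung, against 5.31% of all probe sets. They were Meg3 1439380_x_at at 3.84 ± 1.21 (SE, limma adjusted p = 0.0376) and Rian 1452899_at at 4.26 ± 0.93 (SE, limma adjusted p = 0.00226), higher in 14 of 14 tumours. That count was 6 without TI-K 8, TI-KM 8 or TI-KM 9, 4 without TI-KM 6, and 9 within the high-18S arrays, to which the normal lung belongs by its 18S signal. Shares over all probe sets in these refits are not given here.

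Recurrences are set beside the normal lung as a description. Of the 19 members, 9 had a mean at least 2-fold higher in recurrences, where 14.9% of all probe sets did. A mean at least 2-fold lower was seen for 1, and the share of all probe sets that much lower is not given here. Rian 1452899_at was at 2.57 and Rian 1440001_at at 2.03, each above the normal lung in 6 of 6 recurrences. Meg3 1439380_x_at was at 0.72, above the normal lung in 4 of 6, and at 0.14 without recurrence 3. The member at least 2-fold lower was Meg3 1452906_at, at -1.36, below the normal lung in 6 of 6.

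Maternally and paternally expressed members were then compared array by array. Each gene's probe sets were averaged as deviations from the mean of the 22 primaries, and Meg3, Rian and Mirg were averaged into 1 maternal value, with Dlk1 the only paternal gene. The maternal value was 0.41 ± 1.01 (SD, n = 8) in TI-K primaries, -0.24 ± 0.78 (SD, n = 14) in TI-KM primaries, -1.57 ± 0.70 (SD, n = 6) among recurrences and -2.67 for normal lung. Dlk1 was at -0.10 ± 1.52 (SD, n = 8), 0.06 ± 0.87 (SD, n = 14), -0.98 ± 1.19 (SD, n = 6) and -1.89. Recurrences thus lay below TI-KM primaries by -1.33 for the maternal genes and by -1.04 for Dlk1, each on the log2 scale. Among high-18S arrays Dlk1 1449939_s_at differed by -1.13 and the weaker 1442724_at by -0.44. Among the remaining arrays they differed by -1.81 and -0.57.

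Both sides of the imprint had lower means in recurrences, and the gap between them was small beside its spread. Maternal minus Dlk1 was 0.51 ± 1.02 (SD, n = 8) in TI-K primaries, -0.29 ± 0.91 (SD, n = 14) in TI-KM primaries and -0.59 ± 0.88 (SD, n = 6) in recurrences. All 6 recurrences were below 0 for the maternal value and 5 of 6 for Dlk1. So were 8 of 14 TI-KM primaries for the maternal value and 6 of 14 for Dlk1, and 3 and 4 of the 8 TI-K primaries. The gap was widest in recurrence 2, at -1.72, and opposite in recurrence 4, at 0.69, and recurrence 1, at 0.16.

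**Figure D5:**
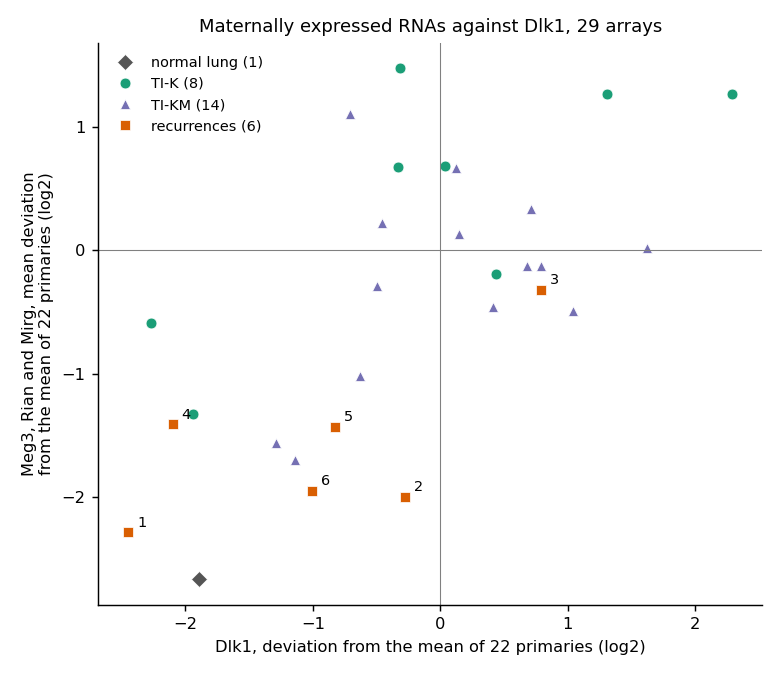
Mean deviation of the maternally expressed Meg3, Rian and Mirg (vertical) against that of Dlk1 (horizontal), both in log2 from the mean of the 22 primaries, 1 point an array; numbers name the recurrences. Recurrence 3 lies among the primaries, recurrence 1 is low on both axes (-2.29 and -2.45), and recurrence 2 is low on the vertical axis but at -0.28 on the horizontal one.

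Within the 22 primaries, of which the 14 TI-KM arrays took part in the choice of Meg3, the maternal RNAs varied together and Dlk1 followed Meg3 less closely. Correlations with Meg3 1439380_x_at were computed for the other 18 probe sets and adjusted over these 18. The other Meg3 probe sets had Pearson's r from 0.63 to 0.98, Rian from 0.58 to 0.76, and Mirg 0.71 and 0.74. For Rian 1452899_at, r was 0.58 (n = 22, permutation p = 0.00401, adjusted 0.00451) and Spearman's rho 0.62 (permutation p = 0.00243). For Mirg 1440097_at, r was 0.71 (permutation p = 2.20e-04, adjusted 4.40e-04) and rho 0.67 (permutation p = 0.00101). For Dlk1 1449939_s_at, r was 0.33 (permutation p = 0.136, adjusted 0.144) and rho 0.06 (permutation p = 0.801). Whether the r of Dlk1 differs from those of Rian or Mirg was not tested.

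Leaving out TI-KM 9 and TI-K 8, the arrays farthest from the Meg3 median, gave r of 0.51 for Rian 1452899_at, 0.57 for Mirg 1440097_at and -0.07 for Dlk1 1449939_s_at. Among the 11 primaries of the remaining set, r was 0.74, 0.69 and 0.47 for these probe sets. Among the 6 high-18S TI-KM primaries it was 0.89 (exact permutation p = 0.00833, adjusted 0.0571), 0.87 (exact permutation p = 0.0389, adjusted 0.0778) and -0.53 (exact permutation p = 0.256, adjusted 0.287), so none passed after adjustment. In a relation added after the data were seen, the 3'/5' ratio correlated with Meg3 1439380_x_at at r = 0.25 over the 22 primaries (permutation p = 0.260; adjusted over 4 genes, 0.260), rho = 0.21 (permutation p = 0.342), and at 0.81 over the 6 high-18S primaries. Over those 6 arrays it correlated with Mirg 1440097_at at 0.86 and with Rian 1452899_at at 0.50. TI-KM 3 had the highest ratio of all arrays, 4.01, and the highest Meg3 signal of the TI-KM primaries.

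The genes whose pattern was most like Meg3 over the primaries were ranked by Pearson's r after removing the mean of each group and set, over 22 arrays and 14598 genes. They were A530020G20Rik at 0.89, the GABA-B receptor gene Gabbr1 at 0.89, the transcription kinase gene Cdk12 at 0.88, Paxbp1 at 0.88 and the RNA helicase gene Ddx5 at 0.88. Rian stood at rank 110 (0.73), Mirg at 172 (0.69) and Dlk1 at 2317 (0.34). In recurrences against TI-KM primaries these 5 genes differed by -1.51, -0.84, -0.85, -0.96 and -0.07. A530020G20Rik, the closest, read 52.5 to 194 in recurrences and 103 to 2545 in primaries.

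Of 20 listed genes that set, erase or keep imprints, 18 were measured. Limma called 2 of them lower in TI-KM than in TI-K primaries, near the 8.33% of all probe sets, and 0 higher. An unadjusted p below 0.05 was seen for 5, with no share over all probe sets given for that threshold. Tet2, which oxidises methylated cytosine, was at 248 to 998 in TI-KM and 369 to 2453 in TI-K primaries (-1.28 ± 0.30 SE, limma adjusted p = 0.00721). Setdb1, a histone methyltransferase of silenced chromatin, differed by -0.50 ± 0.13 (SE, limma adjusted p = 0.0128). With the set as a block they gave -0.29 and -0.17 and were not called (limma adjusted p = 0.997 for each). That fit has the limit given above for Meg3. In recurrences Tet2 read 79.0 to 257, a mean difference of -1.72 from TI-KM primaries and the only one of the 18 past 2-fold; Dnmt3b, a de novo DNA methyltransferase, came next at -0.73.

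Of the pathways on which Dlk1 and Dio3 act, the Notch list gave a share near that of all probe sets and the short thyroid hormone list a higher one. Of 15 listed Notch pathway genes 13 were measured, and limma called 1 higher in TI-KM than in TI-K primaries, where 7.49% of all probe sets were, and 0 lower. It was Dlk2, the paralogue of Dlk1, at 1.07 ± 0.29 (SE, limma adjusted p = 0.0165), or 0.35 with the set as a block. Of 9 thyroid hormone genes 7 were measured, and the receptors Thra at 0.59 (limma adjusted p = 0.0193) and Thrb at 0.73 (limma adjusted p = 0.0346) were called higher, with 0.00 and 0.26 under the block, where neither was called. The block fit has the limit given above for Meg3. Of 14 p53 targets, 11 were measured and 0 called by limma. An unadjusted p below 0.05 was seen for 2, again without a share over all probe sets. None of the measured genes of these 3 lists differed 2-fold between recurrences and TI-KM primaries; the largest was Pmaip1, an apoptosis gene that p53 induces, at 0.71.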

How the data were processed

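Each sample was 1 Affymetrix array of biotin-labelled target from total RNA, made with a 2-cycle preparation, per the labels' protocols. The deposited values are intensities, MAS5 signals per the submitters' processing notes, which give no version. All were above 0 and scaled to a trimmed mean near 500, and they entered as deposited. Precision is limited by the number of arrays, which have no read depth. Genes were assigned to probe sets through the platform annotation and the RefSeq gene table (34958 had 1 gene, 932 several, 9160 none). Those above the 40th percentile of their array in at least 6 arrays were kept. Log2(signal + 20) of all 29 arrays entered 1 limma model of 4 groups with a variance trend (limma 3.58.1, R 4.3.3), with Benjamini-Hochberg adjustment over 31932 probe sets. The model was tested on simulated data. Permutation tests were 2-sided with 100000 resamples (smallest p 1e-05), or exact for 6 arrays. The highest-mean probe set stood for a gene. Named were all members, for each list the 2 genes of smallest p and the 2 of largest recurrence difference, and the 5 genes most like Meg3. Members and lists were chosen with earlier results of these data known. Alternatives were other offsets, scalings, filters and probe sets, the sets of arrays as a block or alone, the 3'/5' ratio, averaging TI-KM 1 and 2, and each tumour array left out. The oncogene transgene is not reported by name here.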

Additional observations from a re-analysis of the deposited data

Results flagged for a closer look

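Dixon's criterion for a sample far from the others was applied to 38 groups of tumour signals (19 probe sets in TI-K primaries and in recurrences). Of these, 4 held such a sample. Chance gives about 1 in 20 for independent groups. These groups share tumours and many are probe sets of the same gene, so 4 of 38 is no measure of an excess. For recurrences, whose signals chose Meg3, this is a description. Recurrence 3 read 6835 at Meg3 1439380_x_at, where the next recurrence read 930, and 189 at Mirg 1457030_at, where the next read 48.3. TI-K 8 read 1573 at Meg3 1439380_x_at, where the next lowest TI-K primary read 11200, and 330 at Meg3 1452183_a_at, where the next read 3928. The 14 TI-KM primaries are too many for this criterion.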

How the results depend on the processing

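The number of members called lower in TI-KM than in TI-K primaries was the least stable count: 3 as reported, 5 with an offset of 100, 8 with arrays scaled to a common median, 0 with 1 probe set per gene, 0 with the set of arrays as a block and 0 in the remaining tumour arrays. Higher than normal lung in TI-K tumours were 10 members, 2 with 1 probe set per gene (only 4 members are tested there) and 2 in the remaining arrays. In TI-KM tumours the 2 became 4 with an offset of 5, 5 with a common median, 5 with quantile normalization, 5 with only the groups compared and 9 with the high-18S arrays. Members with a mean at least 2-fold higher in recurrences than in normal lung were 9, 4 with an offset of 100 and 5 in the remaining arrays. Leaving out each tumour array in turn gave 0 to 12 members called lower between primaries, 10 to 13 and 2 to 6 called higher than normal lung in TI-K and TI-KM, and -3.70 to -2.89 for Meg3 1439380_x_at in recurrences minus TI-KM, with 10 to 13 members at least 2-fold lower. Against TI-K primaries the ranges were -4.58 to -3.77 and 15 to 17, and for recurrences against normal lung 0.14 to 0.95 and 8 to 10 members at least 2-fold higher. None of these recurrence differences changed direction under any alternative run, nor did the maternal and Dlk1 values. The r of Rian 1452899_at missed the threshold with 3 other Meg3 probe sets (0.32 with 1428764_at, 0.34 with 1429257_at, 0.38 with 1452906_at; permutation p = 0.142, 0.122 and 0.0838, range over its alternatives from the smallest possible to 0.142), and that of Dlk1 1449939_s_at passed with 1429257_at (0.47). Causes were not tested. The block fit and the remaining tumour arrays both compare TI-KM with TI-K mainly through the same remaining primaries. No shares over all probe sets are given for the counts under these alternatives, so the counts show stability only. No paired analysis was possible because the labels share no replicate numbers between groups. Signals under the offset of 20, as in some recurrences for Meg3 1436713_s_at and Dlk1 1442724_at, carry little information on fold changes.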
